A study of Mus musculus with 64 samples.

Results

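The comparison described here is between mouse embryonic stem cells (mESCs) that lack Suv39h1 and Suv39h2 and control mESCs, both with G9a intact and both untreated. Its members follow from line and treatment in the deposited labels. The rule uses no measured value, but it was set with earlier results of these data known. Its members are the 8 samples of line SE without 4-hydroxytamoxifen (4OHT), labelled Suv39h1/2-DKO, and the 8 of line 33-6 without 4OHT, labelled control. They are 16 of the 64 samples of the series. Each line has 3 H3K9me2 ChIP libraries and 3 input libraries, from lots 1, 4 and 7, and 2 Lamin B1 ChIP libraries, from lots 1 and 4.

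All cells are of strain TT2. Line 33-6 is one in which Setdb1 is removed by adding 4OHT, and the SE line also becomes Setdb1-deficient with 4OHT, per the labels, so in both groups that deletion was left uninduced. Each genotype is represented by 1 line, so the Suv39h1/2 genotype and any other difference between SE and 33-6 cannot be told apart. The labels do not say whether a line is 1 clone or whether lots are separate cultures, so every p-value below refers to the spread among libraries, which may be technical. The deposited values are read totals of whole libraries. They resolve no gene, repeat or domain, and they allow no check of the knockouts or of embryonic stem cell markers.

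Lysine 9 of histone H3 can carry up to 3 methyl groups, and different enzymes add them. G9a, which works as a complex with GLP, is the main source of the dimethyl form (H3K9me2) in euchromatin, where this mark is associated with silent genes and with chromatin at the nuclear periphery. Suv39h1 and Suv39h2 are a pair of related methyltransferases best known for the trimethyl form in pericentromeric heterochromatin, where it is bound by HP1 proteins. In the RefSeq annotation of build GRCm38.p6, Suv39h1 lies on chromosome X from 8061171 to 8074760 and Suv39h2 on chromosome 2 from 3455815 to 3474986. Lamin B1, the other protein profiled, is a component of the nuclear lamina, the meshwork under the inner nuclear membrane that contacts H3K9me2-rich domains. The comparison asks how total H3K9me2 and total Lamin B1 contact stand when Suv39h1/2 are gone and G9a is still there.

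The measurement was spike-in ChIP-seq. Chromatin of Drosophila S2 cells, a fly line, was mixed with the mouse chromatin before precipitation, so that reads of the fly genome give a common yardstick for the mouse reads. The normalised ratio used below takes the number of mouse reads per fly read in a ChIP library and divides it by the same number in the input library of that line and lot. Lamin B1 was precipitated together with a fly histone antibody (against H2Av), so its ratio can be compared between lines but has no meaning as a level. Between 39.3 M and 72.4 M reads were counted in each of the 6 H3K9me2 libraries, between 51.7 M and 186 M in each of the 4 for Lamin B1, and between 40.7 M and 119 M in each of the 6 inputs. At this depth the 95% counting interval of any of these ratios was at most ±0.219% of its value, a limit that covers counting error only. The differences between lots were many times wider.

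H3K9me2 stood lower in Suv39h1/2-DKO cells than in the control of the same lot in 3 of 3 lots, and the difference between the group means did not pass the test. The control libraries of lots 1, 4 and 7 had normalised ratios of 1.24, 1.14 and 0.558. The Suv39h1/2-DKO libraries of the same lots had ratios of 0.783, 0.651 and 0.394. The groups overlapped, because the lot 7 control library lay below the lot 1 and lot 4 libraries of Suv39h1/2-DKO cells. The means were 0.979 ± 0.368 (SD, n = 3) in control and 0.610 ± 0.198 (SD, n = 3) in Suv39h1/2-DKO cells.

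Matched by lot, Suv39h1/2-DKO cells held 63.2% of the control H3K9me2 in lot 1, 57.2% in lot 4 and 70.7% in lot 7. On the log2 scale these differences were −0.66, −0.81 and −0.50. Their mean was −0.66, a geometric mean of 63.5% of the control or a 1.58-fold lower value. The exact two-sided permutation test of 3 against 3 libraries gave p = 0.3 (adjusted p = 0.45 over the 3 measures H3K9me2, Lamin B1 and input), and this design cannot go below 0.1. Of the 9 possible pairs of a Suv39h1/2-DKO and a control library, 7 were lower in Suv39h1/2-DKO.

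**Figure D1:**
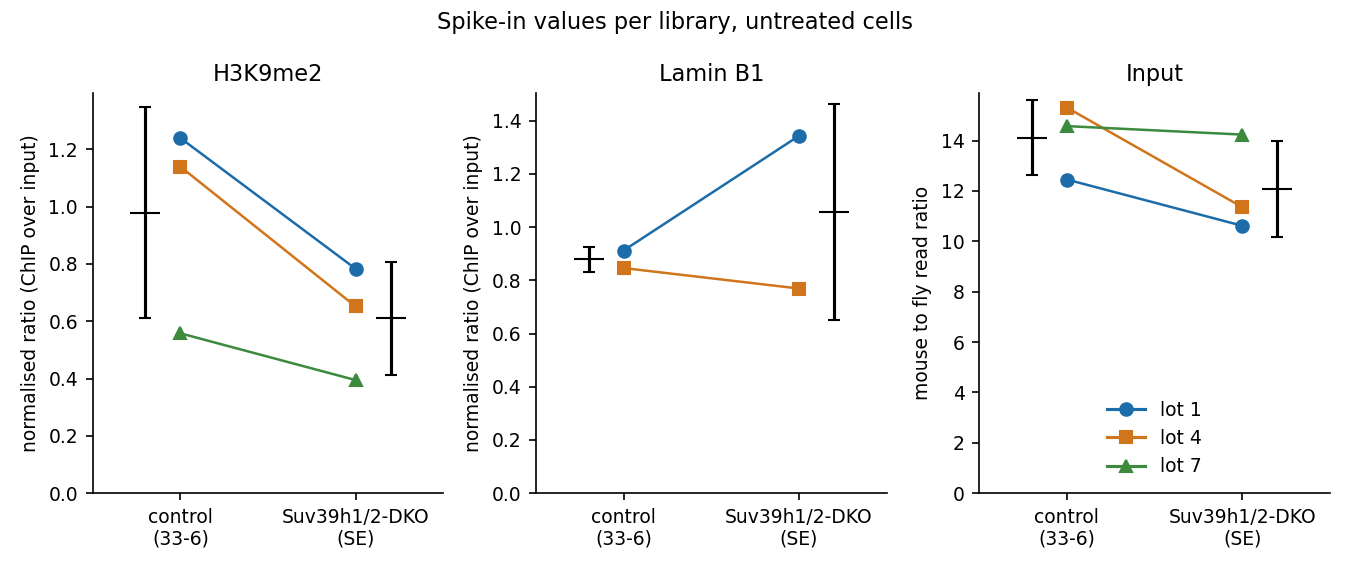
Values of every library of the untreated control line 33-6 and the untreated Suv39h1/2-DKO line SE, as normalised ratios for H3K9me2 (left) and Lamin B1 (middle) and as mouse to fly read ratios for input (right). Lines join libraries of the same lot, and black bars show the mean ± SD of each group; H3K9me2 goes down in all 3 lots, Lamin B1 goes up in lot 1 and down in lot 4, and the input ratio goes down in all 3.

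H3K9me2 of both lines moved with the lot. Around its group mean, the log2 H3K9me2 value of the control deviated by 0.42, 0.30 and −0.73 in lots 1, 4 and 7. In Suv39h1/2-DKO cells the same deviations were 0.42, 0.15 and −0.57. Lot 7 was thus the lowest in both lines, at 46.9% of the mean of lots 1 and 4 in the control and at 55.2% in Suv39h1/2-DKO cells. The spread between libraries had a log2 SD of 0.58 pooled over the 2 groups, while the lot-matched differences had a log2 SD of 0.15.

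How far the H3K9me2 difference stands clear of 0 therefore depends on the spread it is set against. From the 2 groups alone the 95% interval of the log2 difference was −1.96 to 0.65, that is 25.7% to 157% of the control. From the 3 lot-matched differences it was −1.04 to −0.27, or 48.7% to 82.7% of the control, and it left out 0. The exact sign-flip permutation test of those 3 differences gave p = 0.25, the smallest it can give. With lot as a term in a fit over the 12 libraries of the 4 genotypes with G9a, the interval ran from −1.19 to −0.12. These 4 genotypes are the 2 lines compared here, each without and with 4OHT. The spread behind this interval thus includes treated, Setdb1-deficient libraries. The same fit over all 24 H3K9me2 libraries adds the lines that lack G9a, also without and with 4OHT. It gave −1.66 to 0.35, which includes 0. The fit over the 4 genotypes with G9a also included 0 without lot 4 (−1.30 to 0.14) and without lot 7 (−1.89 to 0.42). Single libraries weighed on the mean difference: it was −0.37 without the lot 7 library of Suv39h1/2-DKO cells and −1.02 without the lot 7 library of the control. These intervals treat log2 values as normally distributed with 1 common spread.

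**Figure D2:**
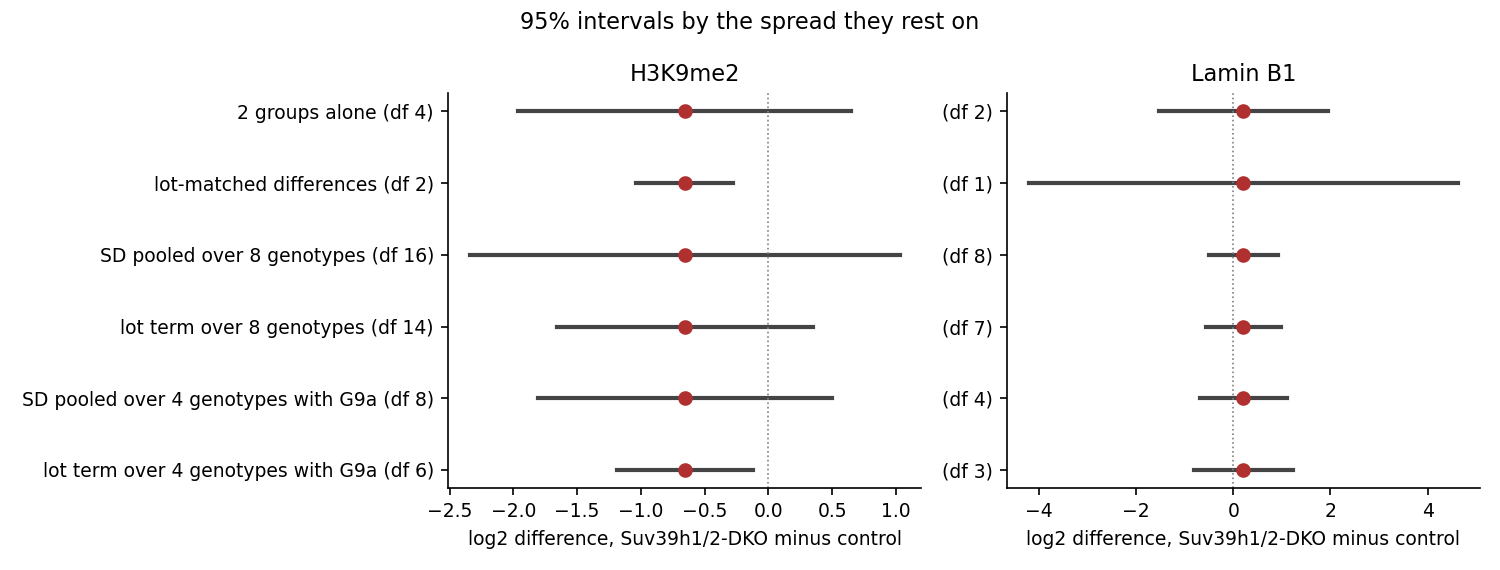
The log2 difference between Suv39h1/2-DKO and control cells (red point) with its 95% interval (grey bar) for H3K9me2 (left) and Lamin B1 (right), by the spread each interval rests on, in the same order from top to bottom in both panels; df is the number of residual degrees of freedom. For H3K9me2 the interval leaves out 0 for the lot-matched differences (−1.04 to −0.27) and for the lot term over the 4 genotypes with G9a (−1.19 to −0.12), and for Lamin B1 every interval includes 0; the axes of the panels differ in scale.

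Before division by input, the fly reads of these same libraries differed in the same direction, which is not separate support. Fly reads made up 6.09%, 5.42% and 11.0% of the control H3K9me2 libraries in lots 1, 4 and 7. In Suv39h1/2-DKO cells the shares were 10.7%, 11.9% and 15.1%. A larger fly share corresponds to fewer mouse reads per fly read, and the share was higher in Suv39h1/2-DKO cells in each lot. As mouse to fly ratios, the control libraries stood at 15.4, 17.4 and 8.13 and the Suv39h1/2-DKO libraries at 8.31, 7.40 and 5.62. On this ChIP ratio alone Suv39h1/2-DKO cells held 54.1% of the control by geometric mean, and the log2 differences by lot were −0.89, −1.24 and −0.53.

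The input libraries, which had not been precipitated, also differed between the lines. The input mouse to fly ratio was 12.5, 15.3 and 14.6 in lots 1, 4 and 7 of the control. It was 10.6, 11.4 and 14.2 in the same lots of Suv39h1/2-DKO cells. The extracts had been mixed at 9 to 1 by DNA content, mouse to fly. The fly share of reads ran from 6.13% to 7.43% in control inputs and from 6.56% to 8.61% in Suv39h1/2-DKO inputs. By lot, the input ratio differed by −0.23, −0.43 and −0.03 on the log2 scale, and the mean of −0.23 had a 95% interval from −0.67 to 0.20. Permuting the 6 libraries exactly, on both sides, gave p = 0.2 (adjusted p = 0.45 over the 3 measures; 0.1 is the smallest possible). Dividing by input reduced the H3K9me2 difference from −0.89 to −0.66 on the log2 scale. In lot 7, where the inputs of both lines were nearly alike, the normalised difference of −0.50 was close to the −0.53 of the ChIP ratio alone.

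**Figure D3:**
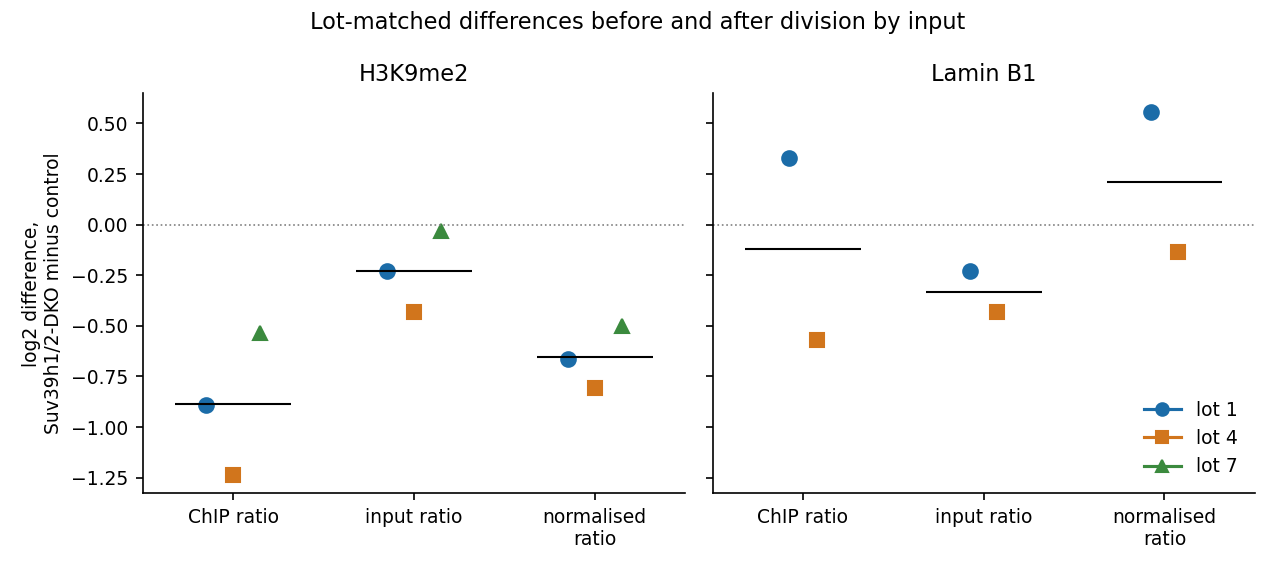
Log2 differences between Suv39h1/2-DKO and control libraries of the same lot, for the mouse to fly ratio of the ChIP library, that of the input library, and the normalised ratio (the first minus the second). Each point is 1 lot and black lines are means; for H3K9me2 all 9 points are below 0, and for Lamin B1 the mean is below 0 for the ChIP ratio (−0.12) and above 0 for the normalised ratio (0.21).

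Lamin B1 showed no shared direction. In control cells the normalised ratio was 0.912 in lot 1 and 0.846 in lot 4. In Suv39h1/2-DKO cells it was 1.34 in lot 1 and 0.769 in lot 4. One Suv39h1/2-DKO library lay above both controls and the other lay below both, and the lot 1 library was the highest of the 16 Lamin B1 libraries of the series. The means were 0.879 ± 0.0466 (SD, n = 2) in control and 1.06 ± 0.406 (SD, n = 2) in Suv39h1/2-DKO cells. Relative to the control of its lot, the Suv39h1/2-DKO value was 147% in lot 1 and 90.9% in lot 4.

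On average Lamin B1 differed by 0.21 on the log2 scale, and these 4 libraries alone give a 95% interval from −1.53 to 1.96. From the lot-matched differences the interval widened to −4.21 to 4.63. It narrowed to −0.49 to 0.91, or 71.1% to 188% of the control, with the SD pooled over all 8 genotypes, 4OHT-treated ones included. That pooled log2 SD was 0.30, against 0.57 in Suv39h1/2-DKO cells alone. The exact two-sided permutation test of 2 against 2 libraries gave p = 1 (adjusted p = 1 over the 3 measures), with 0.333 the smallest value possible. The direction turned without input correction, where the mean was −0.12. It also turned without the lot 1 library of Suv39h1/2-DKO cells (−0.19) and without lot 1 as a whole (−0.14). The input of that lot 1 library was the shallowest of the 6, with 40.7 M reads, although its ratio has a counting interval of only ±0.155%.

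Setting both ChIPs of a lot side by side removes the input, which they share. It does not remove the fly precipitation, which differed, since anti-H2Av was added only for Lamin B1. The resulting ratios can thus be compared between lines but have no meaning as levels. In control cells the mouse to fly ratio of the H3K9me2 library was 1.36 times that of the Lamin B1 library in lot 1 and 1.35 times in lot 4. In Suv39h1/2-DKO cells it was 0.583 times in lot 1 and 0.847 times in lot 4. The control values were nearly equal, and both Suv39h1/2-DKO values were below them. The H3K9me2 difference was thus lower than the Lamin B1 difference by 1.22 on the log2 scale in lot 1 and by 0.67 in lot 4. Their mean was −0.94. An exact two-sided permutation test of 2 against 2 differences gave p = 0.333, the smallest possible (adjusted p = 0.583 over 7 further comparisons). That test and the 95% interval, −2.47 to 0.58, took the H3K9me2 and Lamin B1 differences as separate groups. Neither used the pairing by lot, so the shared input stays in their spread.

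Where the loss of Suv39h1/2 stands relative to the loss of G9a was read by comparing SE directly with SG, the untreated G9a-KO line, since both differences from the control share its libraries. H3K9me2 was higher in Suv39h1/2-DKO than in G9a-KO cells in 3 of 3 lots, where the G9a-KO ratios were 0.162, 0.349 and 0.146. The groups did not overlap, and the lot-matched excess came to 4.84-fold, 1.87-fold and 2.71-fold in lots 1, 4 and 7. The mean log2 difference was 1.54, with a 95% interval from 0.16 to 2.91 for the groups as such and from −0.19 to 3.26, which includes 0, for the lot-matched differences. The interval for the groups also included 0 when any 1 lot was left out. It left out 0 without input correction (1.03 to 2.43 around 1.73) and as a difference of linear ratios (0.03 to 0.76 around 0.39). The exact permutation test reached 0.1, the smallest p it can give (adjusted p = 0.35 over 7 comparisons). In each of the 3 lots the untreated lines stood in the order control, Suv39h1/2-DKO, G9a-KO and then the G9a;Suv39h1/2-TKO line, with and without input correction. That order sets lines side by side and is not a test of neighbours.

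For Lamin B1 the size of the difference between these lines varied with the lot and with input correction. The normalised Suv39h1/2-DKO value was 2.36-fold that of G9a-KO in lot 1 and 1.03-fold in lot 4, where the values were 0.769 and 0.748. On the ChIP ratio alone it was 240% of G9a-KO in lot 1 and 154% in lot 4. The mean log2 difference was 0.64 (95% interval −1.29 to 2.56), with an exact permutation p of 0.333, the smallest possible (adjusted p = 0.583 over 7 comparisons).

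**Figure D4:**
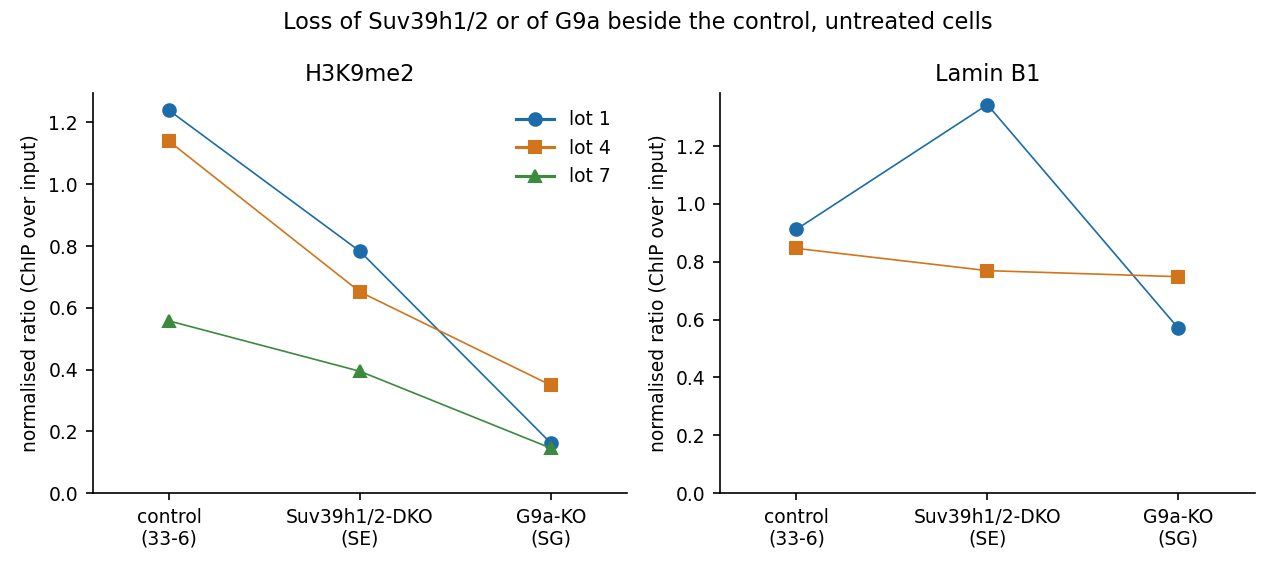
Normalised ratios of H3K9me2 (left) and Lamin B1 (right) in the untreated control (33-6), Suv39h1/2-DKO (SE) and G9a-KO (SG) lines, each point 1 library and lines joining libraries of the same lot. For H3K9me2 the Suv39h1/2-DKO libraries (0.394 to 0.783) lie between the other lines in every lot; for Lamin B1 the lot 4 values of Suv39h1/2-DKO (0.769) and G9a-KO (0.748) nearly coincide.

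The same pair of lines was also profiled after 96 h in 800 nM 4OHT, when both lack Setdb1. Setdb1 is a methyltransferase that trimethylates H3K9 at retroelements. These treated libraries entered none of the mean differences above. They did enter the spread of the fits with a lot term and of the SD pooled over all genotypes. After 4OHT, H3K9me2 of line SE was 90.0%, 52.2% and 59.6% of that of line 33-6 in lots 1, 4 and 7. The mean log2 difference was −0.61 after 4OHT and −0.66 without it. The difference between these effects was 0.04, with an exact permutation p of 0.9 (adjusted p = 1 over 7 comparisons). Its 95% interval was −0.66 to 0.74 with the effects unpaired and −0.97 to 1.06 from lot-matched values. A change of the effect within the wider limits remains possible. The test cannot go below 0.1, so no change of any size could have passed it. Without input correction the treated pair was higher, not lower, in lot 1 (113%), and its mean log2 difference was −0.36, against −0.89 in the untreated pair. Lamin B1 after 4OHT was again higher in line SE in lot 1 (121%) and lower in lot 4 (80.7%). On the ChIP ratio alone it was higher in both, at 152% in lot 1 and 113% in lot 4. Its effect changed by −0.23 with 4OHT (95% interval −2.18 to 1.72; exact permutation p = 0.667, adjusted p = 0.933 over 7 comparisons).

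With G9a absent, Suv39h1/2 loss went with a wider range of H3K9me2 differences. Untreated 3S1G cells, labelled G9a;Suv39h1/2-TKO, held 52.3%, 29.1% and 12.3% of the H3K9me2 of G9a-KO cells in lots 1, 4 and 7. All were below the 57.2% to 70.7% of the untreated pair with G9a. The 4OHT-treated pair with G9a reached down to 52.2% in lot 4, level with the 52.3% without G9a in lot 1. The log2 effect without G9a minus that with G9a came to −1.26 (95% interval −2.96 to 0.44 unpaired, −4.12 to 1.60 from lot-matched values). An exact permutation of the 3 against 3 lot-matched effects gave p = 0.1, the smallest possible (adjusted p = 0.35 over 7 comparisons). Without lot 7 the value was −0.62. The H3K9me2 ratios of untreated 3S1G cells were low, at 0.0845, 0.102 and 0.0179 in lots 1, 4 and 7. Fly reads made up 79.4% of their lot 7 library. On the ChIP ratio alone the groups overlapped, at 58.2%, 38.8% and 12.3% without G9a and 53.9%, 42.4% and 69.1% with it, and the effects differed by −0.84 (exact permutation p = 0.3). As a difference of linear ratios the sign was opposite (0.218). On that scale the effect with G9a was −0.369, and the whole mean ratio of G9a-KO cells was 0.219. For Lamin B1 the effect without G9a was 108% in lot 1 and 101% in lot 4. It differed from the effect with G9a by −0.14 (95% interval −1.65 to 1.37; exact permutation p = 1, adjusted p = 1 over 7 comparisons), and by 0.47 without input correction.

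**Figure D5:**
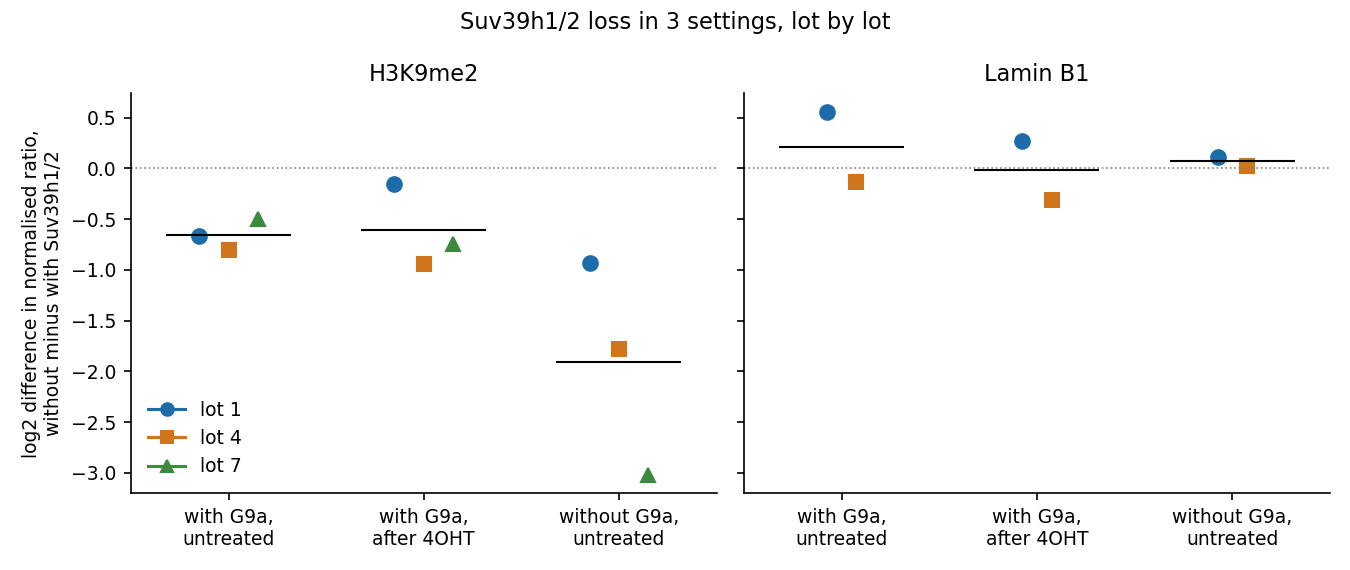
Log2 differences in normalised ratio between lines without and with Suv39h1/2, matched by lot, for H3K9me2 (left) and Lamin B1 (right), with G9a and untreated (SE against 33-6), with G9a after 4OHT (the same lines) and without G9a and untreated (3S1G against SG). Points are lots and black lines are means; the H3K9me2 differences run from −0.81 to −0.50, from −0.94 to −0.15 and from −3.02 to −0.94 in these settings.

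The processing notes of line SE name a read trimmer, fastp, in all 16 of its samples, and those of line 33-6 in 0 of 16. The same holds for 3S1G (16 of 16) and SG (0 of 16). Whether reads of 33-6 and SG were trimmed is not stated. If they were not, trimming and Suv39h1/2 genotype cannot be told apart in the comparisons of SE with 33-6 or SG and of 3S1G with SG.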

How the data were processed

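Cells of both species were cross-linked in DSG (25 mM, 40 min) and then in formaldehyde (1%, 15 min), per the labels' protocols. Antibody was used at 1 µg per ChIP, with 0.5 µg of anti-H2Av added for Lamin B1, and reads were 150 nt in pairs. The deposited table gives read counts, as whole numbers, for each library on each genome. The submitters' processing notes name builds mm10 and dm6 and the tools Bowtie2, SAMtools and deepTools 3.5.2, which the authors ran, and for SE and 3S1G also fastp 0.23.4. Neither mapping filters nor the treatment of duplicates is stated. Since 160 of 160 counts are even, a pair of reads was taken as the unit of counting error. Among these counts, those of the lot 1 and lot 4 inputs recur for each ChIP. The deposited ratio columns hold mouse over fly reads, and the deposited scaling factor, also a ratio, equalled ChIP over input in 40 of 40 libraries within a relative tolerance of 1e-09.

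From the counts, log2 normalised ratios were computed and compared by exact two-sided permutation tests with a threshold of 0.05, adjusted by Benjamini-Hochberg over 3 measures or over 7 further comparisons. The 95% intervals came from SDs pooled over the groups named. Table entries of line SE carry a suffix to the line name and were matched by line, treatment and lot. The lot number in the labels was taken to pair libraries, since it is shared across lines; the labels do not say what a lot is. The tests were checked on simulated data. The members follow from labels alone, but they, the comparisons and the alternatives were chosen with earlier results of these data known. The alternatives that the closing section describes as chosen after seeing the data were added later still. The rule for naming genes allowed none as measured, since the table has no gene entries. Computations ran in Python 3.11.15 with scipy 1.17.1, numpy 2.4.6 and pandas 2.3.3, and plots in matplotlib 3.10.9.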

Additional observations from a re-analysis of the deposited data

How the results depend on the processing

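Of 100 alternative values for the 10 comparisons, 91 kept their direction and 9 changed sign. No exact test passed the threshold under any of them, and none of these designs could reach it. For H3K9me2 in Suv39h1/2-DKO against control, 5 of 22 alternative intervals left out 0. The lot as a replicate block gave the same mean H3K9me2 difference of −0.66, with intervals clear of 0 from the lot-matched differences and from the lot term over the 4 genotypes with G9a (also without lot 1, −0.65). The lot-term fits that leave out a lot were chosen after seeing the data, as was the lot-matched interval without input correction, −1.76 to −0.01 around −0.89. Without lot 7, the interval from the 2 groups alone was −1.36 to −0.11. For Suv39h1/2-DKO against G9a-KO, by contrast, the block brought 0 into the H3K9me2 interval. In the other 5 comparisons among lines, blocked intervals were also added after seeing the data and included 0, as did the unblocked ones. Leaving out a lot or library moved the H3K9me2 difference between −1.02 and −0.37, the Lamin B1 difference between −0.19 and 0.61 and the input difference between −0.36 and −0.13.

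Signs turned in comparisons with no call. For Lamin B1 the difference was −0.12 without input correction; its change without G9a was 0.47 without input correction and 0.16 without lot 1; and its change after 4OHT was 0.51 without input correction. For H3K9me2 the change after 4OHT was −0.062 on the linear scale and −0.19 without lot 1, and the change without G9a was 0.22 on the linear scale. The causes were not tested. Over left-out lots, the H3K9me2 change without G9a ran from −1.75 to −0.62, that after 4OHT from −0.19 to 0.19, the excess over G9a-KO from 1.17 to 1.86, and H3K9me2 relative to Lamin B1 from −1.22 to −0.67. For Lamin B1 these ranges were −0.44 to 0.16 without G9a, −0.28 to −0.17 after 4OHT and 0.04 to 1.24 over G9a-KO. Counting error was at most 0.219% of a ratio, so depth is not the limit of these values.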
